A study of Mus musculus with 15 samples.

Results

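The genes described here are 7 podocyte genes, Wt1, Nphs1, Magi2, Cd2ap, Podxl, Ptpro and Synpo, taken by symbol from a count table of 24421 mouse genes. All 7 were listed and all 7 passed the filter on low counts, which left 13912 genes for testing. The table came from primary proximal tubule cells of the kidneys of C57BL/6 mice, passaged 1 time in culture before RNA sequencing. There were 3 libraries of male Diet1-/- cells (KO), 4 of male Diet1+/+ cells (WT), 4 of female KO cells and 4 of female WT cells, 15 in all. Per the labels, the cells of 3 to 4 mice were pooled and split into 4 technical replicates, so each group is 1 pool, and its spread and every p-value below cover variation within a pool and not between mice or cultures. How the Diet1 allele was made, the age of the mice and any treatment are not given in the sources used here, and the Diet1 gene itself was not analysed here.

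Podocytes are the epithelial cells that wrap the glomerular capillaries with interdigitating foot processes. Neighbouring foot processes are bridged by the slit diaphragm, built around nephrin (Nphs1) and tied to actin by adaptors such as CD2AP. The foot process surface carries the sialomucin podocalyxin (Podxl) and the receptor tyrosine phosphatase PTPRO, synaptopodin (Synpo) associates with the actin bundles, and WT1 is a transcription factor that mature podocytes keep. Nephrin is largely restricted to podocytes in the kidney, whereas Cd2ap is expressed in many cell types, Podxl also in endothelium and mesothelium, and Wt1 also in mesothelium. The question put to the data was how high these genes were in cells labelled as proximal tubule, and whether they moved together over the 4 pools.

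Library totals were 17648416 to 30896637 counts, so that 3 counts, taken as the floor, corresponded to 0.0971 to 0.170 CPM (counts per 1000000 counts of the library). The tubule label was checked against 13 proximal tubule markers. Of these, 7 passed the filter and 6 did not: the transporters Slc34a1, Slc5a2, Slc5a12 and Slc22a6, the oxygenase Miox and the androgen-responsive gene Kap. Slc34a1 had 4 counts over all 15 libraries, and Slc22a6 and Kap had 1 each. The endocytic receptors Lrp2 and Cubn were measured, at 0.921 and 0.464 CPM per kb of exon in male KO cells, 1.25 and 0.439 in male WT cells, 0.726 and 0.402 in female KO cells, and 1.17 and 0.398 in female WT cells. Several defining proximal tubule markers were therefore at or near 0 in all 4 pools, while every podocyte gene examined was above the floor in all 15 libraries.

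Per kb of merged exon length, the 7 genes spanned a wide range of levels. Podxl was at 36.1 CPM per kb in male KO cells, 38.5 in male WT cells, 25.1 in female KO cells and 20.2 in female WT cells. Cd2ap was at 25.6, 23.9, 24.0 and 23.9 CPM per kb in male KO, male WT, female KO and female WT cells, and Synpo at 13.0, 16.7, 12.8 and 14.9 in the same groups. These 3 were in the upper part of the tested genes, at or above the percentile of 71.3 in every pool. Wt1 was near the middle, at 5.23, 5.96, 5.86 and 4.45 CPM per kb. Ptpro was lower, at 2.76, 3.26, 1.36 and 1.14 CPM per kb, and Nphs1 and Magi2 were lowest, at or below the percentile of 19.8 in every pool. Nphs1 stood at 0.929, 0.978, 0.502 and 0.345 CPM per kb in the 4 groups in that order, and Magi2 at 0.498, 0.599, 0.412 and 0.456.

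**Figure D1:**
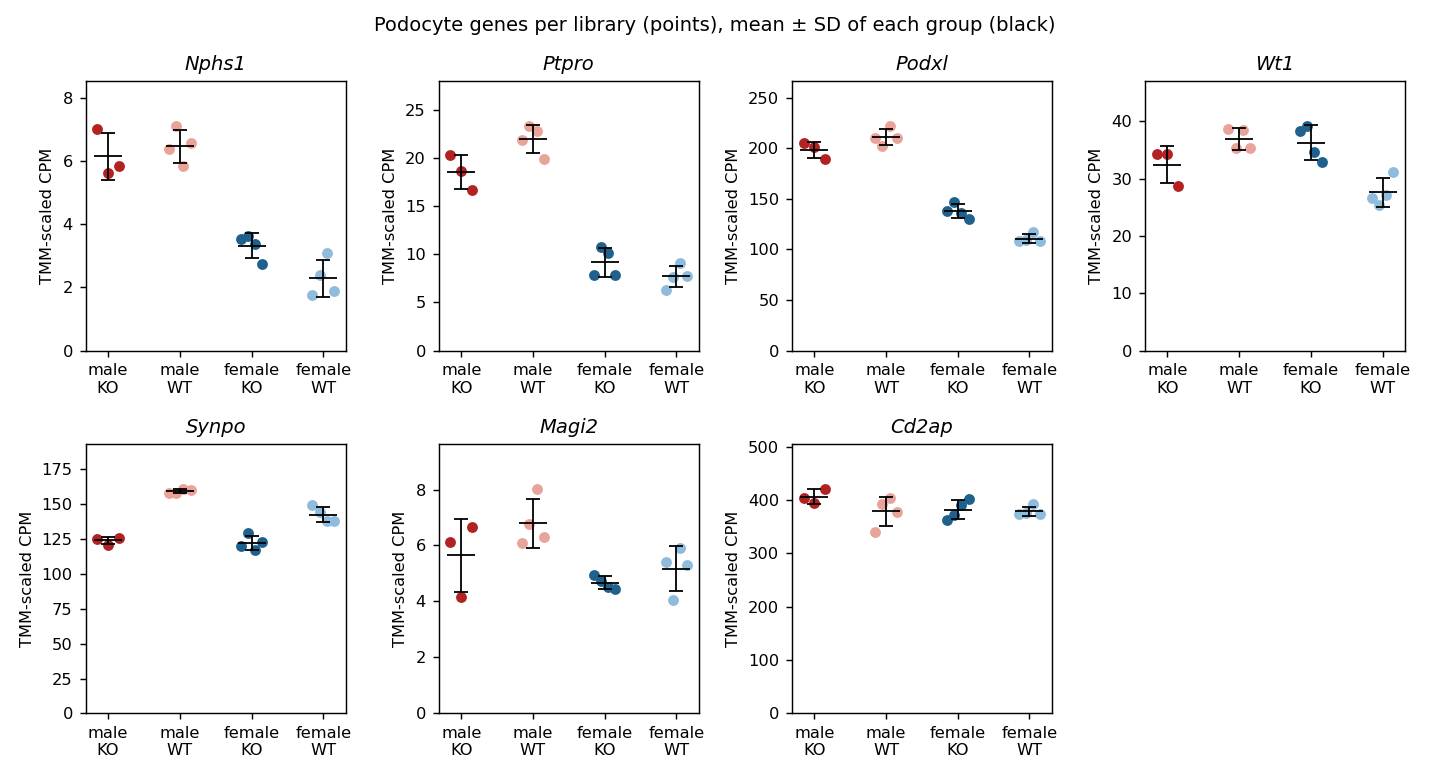
Level of each podocyte gene in every library, in TMM-scaled CPM on axes that start at 0, by group, with group means and SD. Nphs1, Ptpro and Podxl are lower in every female library than in every male library, whereas Cd2ap overlaps between KO and WT libraries in each sex and between the sexes within each genotype.

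Wt1, on chromosome 2 (105126529 to 105173616, plus strand; all positions are of GENCODE M21, build GRCm38), encodes a zinc finger transcription factor needed for podocyte differentiation. It had 34.3, 34.3 and 28.7 CPM in male KO libraries, against 38.6, 35.3, 38.5 and 35.3 CPM in male WT libraries. Female KO libraries had 38.4, 39.2, 34.6 and 32.9 CPM, against 26.6, 25.4, 27.2 and 31.2 CPM in female WT libraries. The KO and WT libraries did not overlap in either sex, but they were separated in opposite directions. Among all tested genes, 27.7% had groups that did not overlap in males and 36.1% in females. The log2 fold change of KO over WT was -0.20 ± 0.072 (SE) in males, with an adjusted p of 0.0576 that missed the threshold of 0.05, and Wt1 rose by 0.38 ± 0.069 in females (adjusted p = 7.01e-05). The female effect exceeded the male effect by 0.58 ± 0.10 on the log2 scale (adjusted p = 0.000137). The antisense transcript Wt1os had 10 to 27 counts per library, against 478 to 1192 counts for Wt1.

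Nphs1, on chromosome 7 (30458315 to 30487223, plus strand), encodes nephrin, whose extracellular domains form the slit diaphragm. Its counts were low, 35 to 197 per library. It had 7.01, 5.61 and 5.83 CPM in male KO libraries, against 6.37, 7.11, 5.85 and 6.56 CPM in male WT libraries, and the groups overlapped. Female KO libraries had 3.54, 3.64, 3.37 and 2.74 CPM, against 1.77, 2.39, 3.08 and 1.90 CPM in female WT libraries. One female WT library, the highest of that group, lay above the lowest female KO library, and all 8 female libraries lay below all 7 male libraries. Nphs1 rose by 0.54 ± 0.16 (SE) on the log2 scale in female KO over female WT cells (adjusted p = 0.00645). In males the log2 fold change was -0.07 ± 0.13 (adjusted p = 0.779). The difference between the female and the male effect was 0.61 ± 0.20 (adjusted p = 0.0363). Nphs1os, an antisense gene that shares 597 exonic bases with Nphs1, averaged 0.8 counts per library against 95.3 for Nphs1. Rps12-ps4, also on the opposite strand, shares 183 exonic bases with Nphs1 and was not among the listed genes. How reads there were assigned is not given in the sources used here.

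Magi2, on chromosome 5 (19227036 to 20704792, plus strand), encodes a scaffold protein that binds nephrin. It had 6.12, 4.16 and 6.66 CPM in male KO libraries, against 6.08, 6.77, 8.03 and 6.30 CPM in male WT libraries. It had 4.96, 4.74, 4.52 and 4.45 CPM in female KO libraries, against 5.42, 4.04, 5.91 and 5.31 CPM in female WT libraries. KO and WT overlapped in both sexes, and neither difference passed the test, with log2 fold changes of -0.26 ± 0.13 (SE) in males (adjusted p = 0.184) and -0.16 ± 0.13 in females (adjusted p = 0.379). Another annotated gene on the same strand, Gm29254, shares 203 exonic bases with Magi2, and how reads there were assigned is not given in the sources used here.

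Cd2ap, on chromosome 17 (42792951 to 42876665, minus strand), encodes the adaptor that links nephrin to actin and endocytosis. It was the most abundant of the 7 in counts, with 403, 395 and 421 CPM in male KO libraries, against 340, 392, 404 and 377 CPM in male WT libraries. Female KO libraries had 362, 371, 391 and 401 CPM, against 374, 375, 392 and 373 CPM in female WT libraries. KO and WT overlapped in each sex, and of all pairs of groups male KO and female WT alone were apart. The log2 fold change of KO over WT was 0.10 ± 0.047 (SE) in males (adjusted p = 0.137) and 0.01 ± 0.043 in females (adjusted p = 0.854), neither past the threshold.

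Podxl, on chromosome 6 (31519488 to 31563981, minus strand), encodes the negatively charged sialomucin that keeps foot processes apart. It had 205, 201 and 189 CPM in male KO libraries, against 210, 202, 222 and 210 CPM in male WT libraries. Female KO libraries had 138, 147, 136 and 130 CPM, against 108, 109, 117 and 108 CPM in female WT libraries. The female KO libraries were all above the female WT libraries, and the male groups overlapped. Podxl rose by 0.32 ± 0.038 (SE) on the log2 scale in female KO over female WT cells (adjusted p = 3.29e-08). In males the log2 fold change was -0.09 ± 0.038 (adjusted p = 0.0859), and the female effect exceeded the male effect by 0.41 ± 0.054 (adjusted p = 9.69e-07).

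Ptpro, also on chromosome 6 (137252319 to 137463233, plus strand), encodes the phosphatase once called GLEPP1. It had 20.3, 18.6 and 16.7 CPM in male KO libraries, against 21.8, 23.3, 22.8 and 19.9 CPM in male WT libraries. It had 7.82, 10.8, 10.1 and 7.87 CPM in female KO libraries, against 6.33, 7.61, 9.08 and 7.77 CPM in female WT libraries. KO and WT overlapped in each sex, and every female library was below every male library. The log2 fold change was -0.25 ± 0.093 (SE) in males (adjusted p = 0.0646) and 0.25 ± 0.11 in females (adjusted p = 0.0817), neither past the threshold. The difference between these effects was 0.49 ± 0.15 (adjusted p = 0.0194).

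Synpo, on chromosome 18 (60593973 to 60660142, minus strand), encodes synaptopodin, an actin-associated protein of foot processes. It had 125, 121 and 126 CPM in male KO libraries, against 158, 158, 161 and 160 CPM in male WT libraries. Female KO libraries had 120, 129, 117 and 123 CPM, against 149, 144, 138 and 138 CPM in female WT libraries. All KO libraries were below all WT libraries, within each sex and across both. Synpo fell by 0.36 on the log2 scale (SE 0.035) in male KO over male WT cells (adjusted p = 9.62e-10), and by 0.22 (SE 0.033) in female KO over female WT cells (adjusted p = 1.65e-06). The fall was smaller in females, by 0.14 ± 0.048 (adjusted p = 0.0364).

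Counted together, 1 of the 7 genes fell in male KO over male WT cells, namely Synpo, and 0 rose, where 10.1% of all tested genes fell, 10.1% rose and 20.2% were called in either direction. In female KO over female WT cells 3 rose (Nphs1, Wt1 and Podxl) and 1 fell (Synpo), where 20.7% of all tested genes rose, 18.6% fell and 39.3% were called in either direction. The median log2 fold change of the 7 was -0.20 in males and 0.25 in females, beside 0.00 for all tested genes in both. The KO effect was higher in females than in males for 5 of the 7 (Nphs1, Ptpro, Podxl, Wt1 and Synpo) and lower for 0, where it was higher for 9.76% of all tested genes and lower for 5.89%, and 15.6% differed in either direction. Of those 5, the calls of Nphs1, Ptpro and Synpo depended on single libraries. Nphs1 missed the threshold without any 1 of 9 libraries (male WT 2 and 4, male KO 2 and 3, female WT 1 and 4, and female KO 1, 2 and 3), with adjusted p-values of 0.0595 to 0.102. Synpo likewise missed it without any 1 of 9 libraries (male WT 2, 3 and 4, male KO 1 and 2, female WT 3 and 4, and female KO 2 and 4; adjusted p = 0.0554 to 0.138), and Ptpro without any 1 of 4 (male KO 3, female WT 1, and female KO 2 and 3; adjusted p = 0.0501 to 0.0634). Conversely, the KO difference of Ptpro passed the threshold in males without male WT 4 or male KO 1 (adjusted p = 0.0445 to 0.0451) and in females without female WT 3, female KO 1 or female KO 4 (0.0248 to 0.0354), and that of Cd2ap passed it in males without male WT 3 (0.0285). DESeq2's test did not call the difference of the effects for Nphs1 or Synpo, nor did scaling by library totals alone for Synpo, whereas limma-voom, and a fit of the 2 male groups only, called Ptpro and Wt1 lower in male KO over male WT cells. With counts summed per pool, which leaves 1 value a group, only a KO effect common to both sexes was fitted. It was -0.29 on the log2 scale for Synpo, 0.22 for Nphs1, 0.11 for Podxl, 0.09 for Wt1 and -0.01 for Ptpro. With libraries scaled by their totals alone, the share of higher genes among all called genes was 39.9% in females, against 52.7% with TMM scaling, and for the difference of the effects 46.2% against 62.4%.

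**Figure D2:**
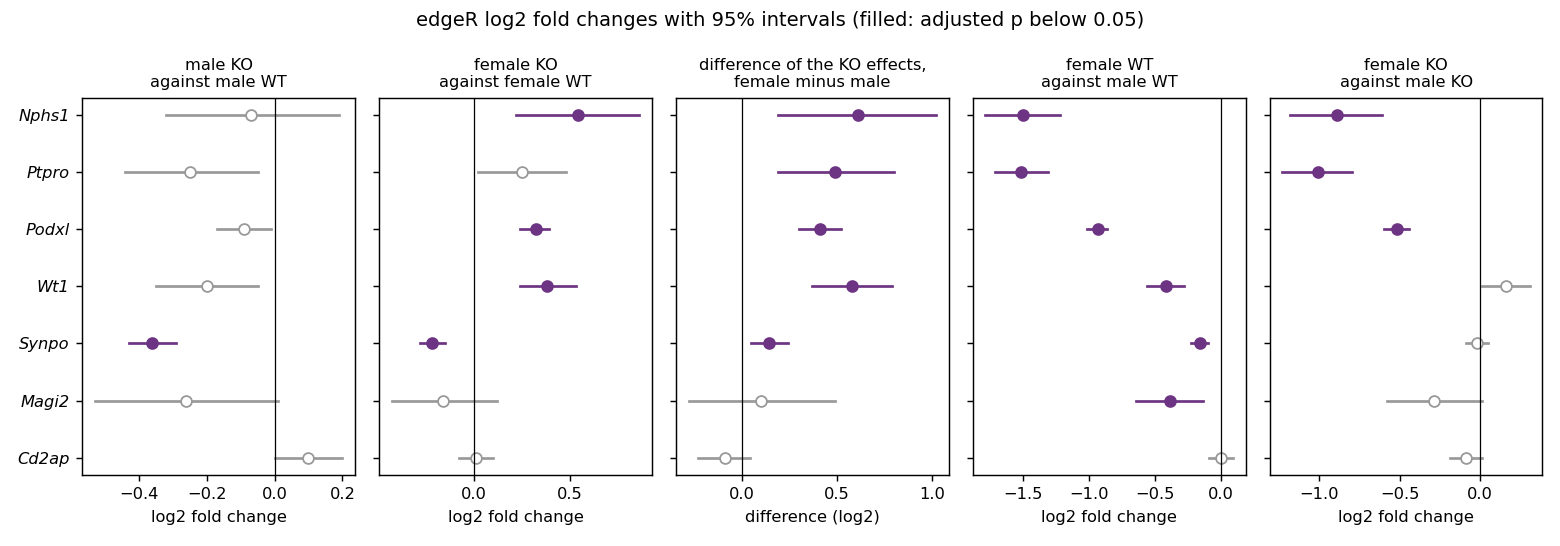
Log2 fold changes of the 7 genes with 95% intervals, by comparison. In female KO over female WT cells Nphs1, Wt1 and Podxl lie above 0 and Synpo below it, and in the comparisons of female with male cells Nphs1, Ptpro and Podxl lie farthest below 0.

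For Nphs1, Ptpro and Podxl the larger differences were between the sexes, and for Synpo they were between KO and WT. In female WT over male WT cells 6 of the 7 genes fell and 0 rose, where 16.0% of all tested genes fell, 12.6% rose and 28.6% were called in either direction, and the groups did not overlap for these 6, as for 27.5% of all tested genes. Nphs1 fell by 1.50 on the log2 scale (SE 0.14, adjusted p = 1.41e-10) and Ptpro by 1.51 (SE 0.098, adjusted p = 1.92e-12). Both nearly coincided in size, and 0.374% and 0.345% of the tested genes had a log2 fold change as low as that of Nphs1 and of Ptpro. Podxl fell by 0.93 (SE 0.037, adjusted p = 3.42e-19), Wt1 by 0.42 (SE 0.068, adjusted p = 3.03e-05), Magi2 by 0.39 (SE 0.12, adjusted p = 0.0172) and Synpo by 0.16 (SE 0.032, adjusted p = 0.000125). Cd2ap had a log2 fold change of 0.00, with a 95% interval of -0.09 to 0.09. The Magi2 call missed the threshold without female WT 2 (adjusted p = 0.0883) or male WT 3 (0.0964). Scaling by library totals alone gave 55.2% higher genes among all genes called in this comparison, against 44.1% with TMM scaling.

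In female KO over male KO cells 3 of the 7 genes fell and 0 rose, where 4.26% of all tested genes fell, 4.94% rose and 9.2% were called in either direction. These 3 were Nphs1, by 0.89 on the log2 scale (SE 0.14, adjusted p = 2.45e-05), Ptpro, by 1.01 (SE 0.11, adjusted p = 9.6e-08), and Podxl, by 0.52 (SE 0.039, adjusted p = 1.42e-11). Their groups did not overlap, as for 19.2% of all tested genes. Wt1 (0.16 ± 0.073, adjusted p = 0.21), Synpo (-0.02 ± 0.036, adjusted p = 0.804), Cd2ap (-0.09 ± 0.047, adjusted p = 0.297) and Magi2 (-0.29 ± 0.14, adjusted p = 0.263) did not pass the test, although Magi2 did without male KO 2 (adjusted p = 0.0437). Each comparison of the sexes shares libraries with the KO comparisons, so the values are given side by side and no agreement between them was computed. With counts summed per pool, only a sex effect common to both genotypes was fitted. On the log2 scale it was -1.26 for Ptpro, -1.2 for Nphs1, -0.73 for Podxl and -0.34 for Magi2. For Wt1 it was -0.13, for Synpo -0.1 and for Cd2ap -0.04. The order of the group means was the same for Nphs1, Ptpro and Podxl, in that male WT was highest, then male KO, female KO and female WT, and male WT and male KO overlapped for all 3.

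Whether the 7 moved as 1 source of cells would was described in 2 further ways. The first was the likeness of profiles, taken as the root mean square difference between 2 genes' log2 CPM (prior count 2), each centred on its mean over the 15 libraries. The gene most like Nphs1 among the other 13911 tested genes was Ptpro, at 0.200 log2 units. Next, with names of gene models, clones, dates and duplicated symbols passed over, came Clic5, at 0.209. Clic5 encodes a chloride channel family protein that associates with the foot process actin. The gene most like Ptpro was Clic5, at 0.122, followed by Nphs1. Measured from Nphs1, Podxl ranked 17, and the other members ranked farther off: Magi2 723, Wt1 884, Cd2ap 4344 and Synpo 4383. Measured from Ptpro, the ranks were Podxl 26, Magi2 372, Wt1 847, Synpo 1901 and Cd2ap 4114. The libraries fall into 4 pools, so these ranks largely express how the pool means differ.

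The nearest genes of the remaining members, with the same kinds of names passed over, lay elsewhere. Those of Podxl were Hmox1 (heme oxygenase, 0.0886 log2 units) and Mest (0.0965). Those of Wt1 were Plat (tissue plasminogen activator, 0.0816) and Nes (the intermediate filament nestin, 0.0833). The genes nearest to Synpo were Col5a2 (a fibrillar collagen chain, 0.0469) and Pla2g4a (a cytosolic phospholipase, 0.0533), and those nearest to Magi2 were Hp (haptoglobin, 0.158) and Tgfbr3 (0.169). Trim33 (0.0292) and Oxr1 (0.0324) were nearest to Cd2ap. A gene that varies little over the libraries has small distances to many genes, and genes that vary much rank far from it. Neither distances nor ranks are therefore comparable between members. The distance of 0.642 between Nphs1 and Synpo was rank 4383 measured from Nphs1 and rank 13601 measured from Synpo. Measured from Synpo, Nphs1 ranked 13601 and Ptpro 13566 of 13911. Synpo ranged over 0.459 log2 units across the libraries, against 1.95 for Nphs1 and 1.86 for Ptpro. These ranks therefore cannot tell a different pattern from a different size of variation.

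**Figure D3:**
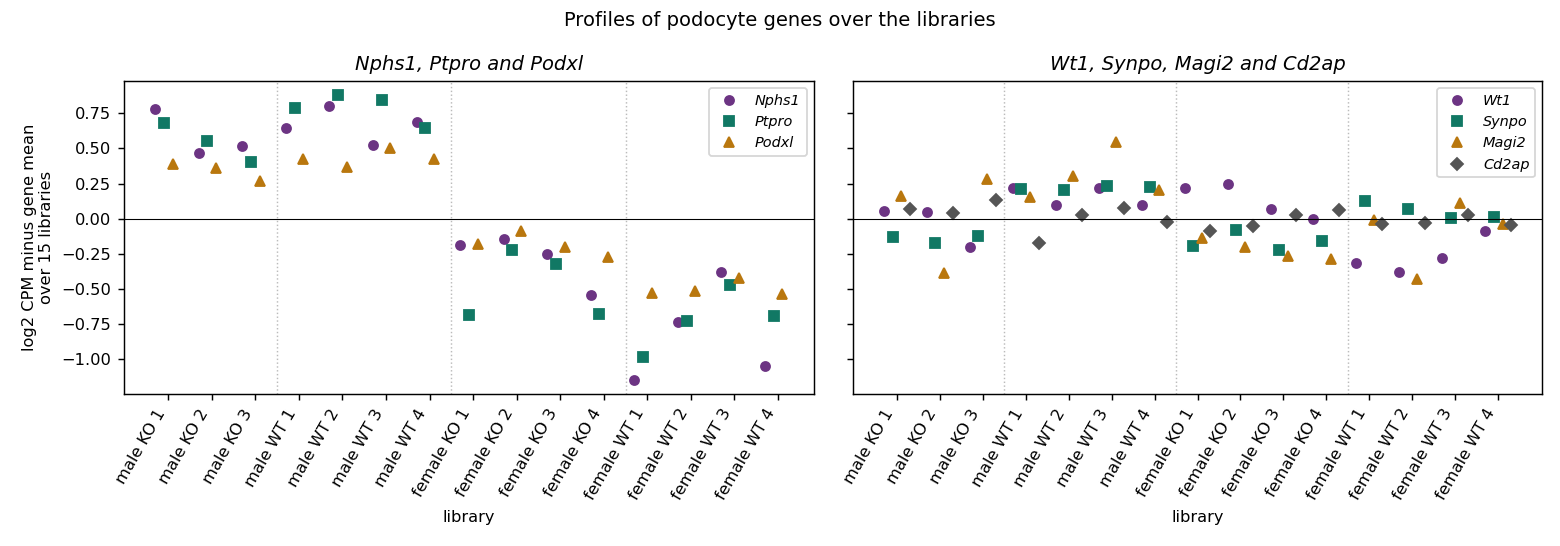
Centred log2 CPM in each of the 15 libraries, for Nphs1, Ptpro and Podxl (left) and for Wt1, Synpo, Magi2 and Cd2ap (right). On the left all male libraries lie above 0 and all female libraries below it, and on the right the genes spread around 0 without a shared order of the groups.

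The second description was the ratio of counts within a library, since genes from 1 unchanging source keep 1 ratio. Per 100 counts of Podxl, Nphs1 had 2.41 ± 0.199 counts in female KO libraries and 2.05 ± 0.45 in female WT libraries (SD, n = 4 each). It had 3.10 ± 0.316 (SD, n = 3) in male KO libraries and 3.08 ± 0.36 (n = 4) in male WT libraries. Ptpro had 6.62 ± 0.885 in female KO and 6.94 ± 0.80 in female WT libraries, and 9.35 ± 0.525 in male KO and 10.4 ± 0.845 in male WT libraries. The means of these ratios differed by less than 1 SD between the KO and WT groups of a sex for Nphs1 in males and Ptpro in females, and lay lower in females than in males for both. Other ratios moved the opposite way. Per 100 counts of Podxl, Wt1 had 26.3 ± 1.16 in female KO and 25.0 ± 2.64 in female WT libraries, against 16.3 ± 0.978 in male KO and 17.5 ± 0.617 in male WT libraries. Synpo had 88.8 in female KO and 129 in female WT libraries, and 62.7 in male KO and 75.5 in male WT libraries on average. Cd2ap had 278 in female KO and 342 in female WT libraries, and 205 in male KO and 179 in male WT libraries. Magi2 had 3.39 in female KO and 4.67 in female WT libraries, and 2.86 in male KO and 3.21 in male WT libraries. The genes therefore did not keep 1 ratio to Podxl over the 4 pools. Wt1, Synpo and Cd2ap stood higher relative to Podxl in female cells while Nphs1 and Ptpro stood lower. All these ratios depend on Podxl as the reference, and other cell types also express it. The summed counts of Ptpro and Nphs1 were 2031 and 593 in male WT and 1131 and 376 in male KO libraries. In female KO libraries they were 747 and 269, and in female WT libraries 650 and 191. Whether any of the genes came from 1 source of cells was not tested. In female WT over male WT cells Wt1 and Synpo themselves fell, but by less than Podxl.

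**Figure D4:**
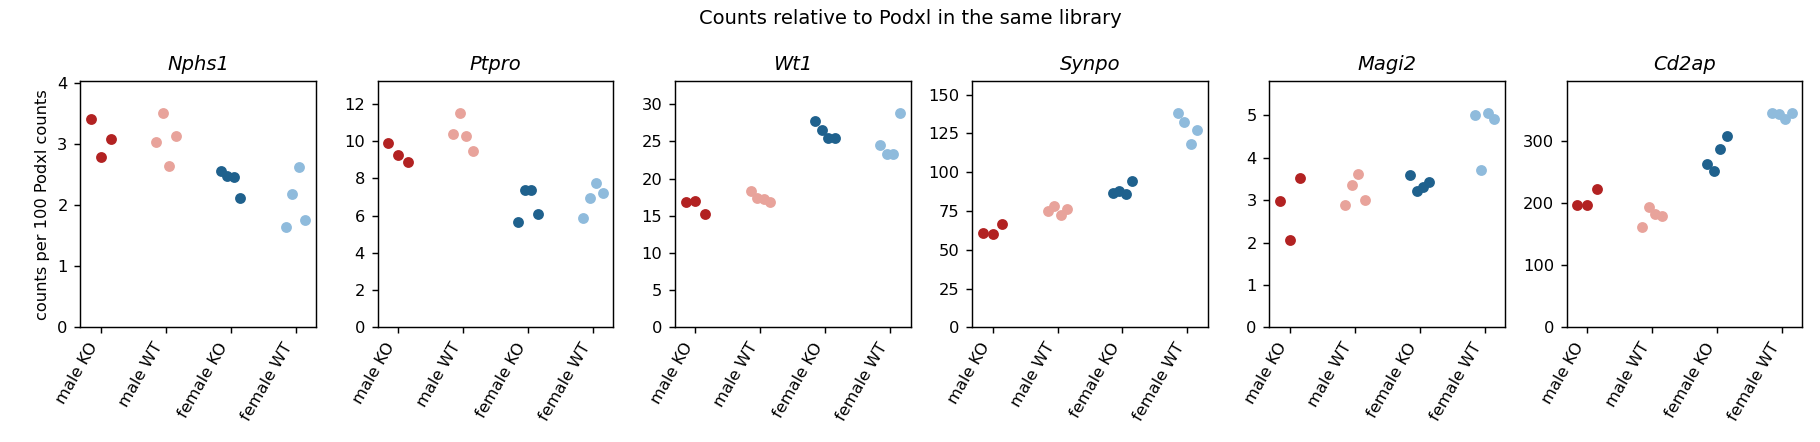
Counts of each gene per 100 counts of Podxl in the same library, by group. The ratios of Nphs1 and Ptpro are lower in female than in male groups, and those of Wt1, Synpo and Cd2ap are higher.

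The pair with the closest profiles, Nphs1 and Ptpro, is shown here with the promoter sequences that RefSeq gives for it in build GRCm38.p6, 250 bases before to 50 bases after a start site, to set them beside the shared pattern. Promoters were held for 4 of the 7 genes (Nphs1, Ptpro, Magi2 and Cd2ap). Both strands were searched for GTGGGNG, the core of a zinc finger motif bound by WT1, and for GCGNGGGCG, a longer motif of the EGR and WT1 zinc fingers. The 2 overlap, in that GCGNGGGCG with T at its N contains GTGGGNG. The windows are chr7:30459808-30460107, plus strand, for Nphs1, at a RefSeq start site inside the GENCODE gene span, and chr6:137252049-137252348, plus strand, for Ptpro. Capitals mark GTGGGNG.
Nphs1: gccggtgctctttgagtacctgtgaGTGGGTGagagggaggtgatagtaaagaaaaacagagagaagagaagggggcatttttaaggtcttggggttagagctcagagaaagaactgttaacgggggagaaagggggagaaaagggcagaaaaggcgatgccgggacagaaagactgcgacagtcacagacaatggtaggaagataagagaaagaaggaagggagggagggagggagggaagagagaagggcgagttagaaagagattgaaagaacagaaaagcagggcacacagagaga
Ptpro: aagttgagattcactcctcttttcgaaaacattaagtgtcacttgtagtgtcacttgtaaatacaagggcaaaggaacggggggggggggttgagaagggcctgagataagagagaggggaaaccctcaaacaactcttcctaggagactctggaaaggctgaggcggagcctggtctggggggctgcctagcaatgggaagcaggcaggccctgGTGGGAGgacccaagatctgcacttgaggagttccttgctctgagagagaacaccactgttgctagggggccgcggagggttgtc
Each window holds 1 match, starting 225 bases before the start site in Nphs1 and 35 bases before it in Ptpro. Cd2ap, whose group means were 378 to 406 CPM, and 1 of the 2 Magi2 windows also hold 1 match each. The motif occurs in 31.6% of the 32851 promoters of the same length, and GCGNGGGCG, found in 5.55% of them, is in none of these windows.

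A wider list of 22 other podocyte-enriched genes, all of which passed the filter, was counted beside the 7. In male KO over male WT cells 13 fell and 0 rose, with a median log2 fold change of -0.33, and in female KO over female WT cells 7 rose and 9 fell, with a median of -0.10. Over all tested genes 10.1% fell and 10.1% rose in males, 20.7% rose and 18.6% fell in females, and the median was 0.00 in both. The genes that fell most among those called in males were Sema3g (a secreted semaphorin, by 0.58 on the log2 scale, SE 0.063) and Rasl11a (a small GTPase, by 0.58, SE 0.14). In females the transcription factor genes Lmx1b (0.53 ± 0.12) and Foxd1 (0.52 ± 0.13) rose most, and Rasl11a (by 0.95, SE 0.14) and the cell cycle inhibitor Cdkn1c (by 0.43, SE 0.058) fell most. The KO effect was higher in females for 7 of the 22 and lower for 3, against 9.76% and 5.89% of all tested genes, with a median difference of 0.26.

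In female WT over male WT cells 14 of the 22 fell and 1 rose, with a median of -0.35, where 16.0% of all tested genes fell and 12.6% rose. In female KO over male KO cells 8 fell and 2 rose, with a median of -0.16, where 4.26% of all tested genes fell and 4.94% rose. Clic5, the gene nearest to Ptpro, averaged 18.5 CPM in female KO, 15.1 in female WT, 35.1 in male KO and 43.3 in male WT libraries, and fell by 1.52 (SE 0.068) in female WT over male WT cells. The fit on counts summed per pool held 1 KO effect common to both sexes and 1 sex effect common to both genotypes. It therefore gave none of the 4 comparisons on its own. In these bulk libraries, fewer cells of a type and less RNA of a gene per cell cannot be told apart.

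**Figure D5:**
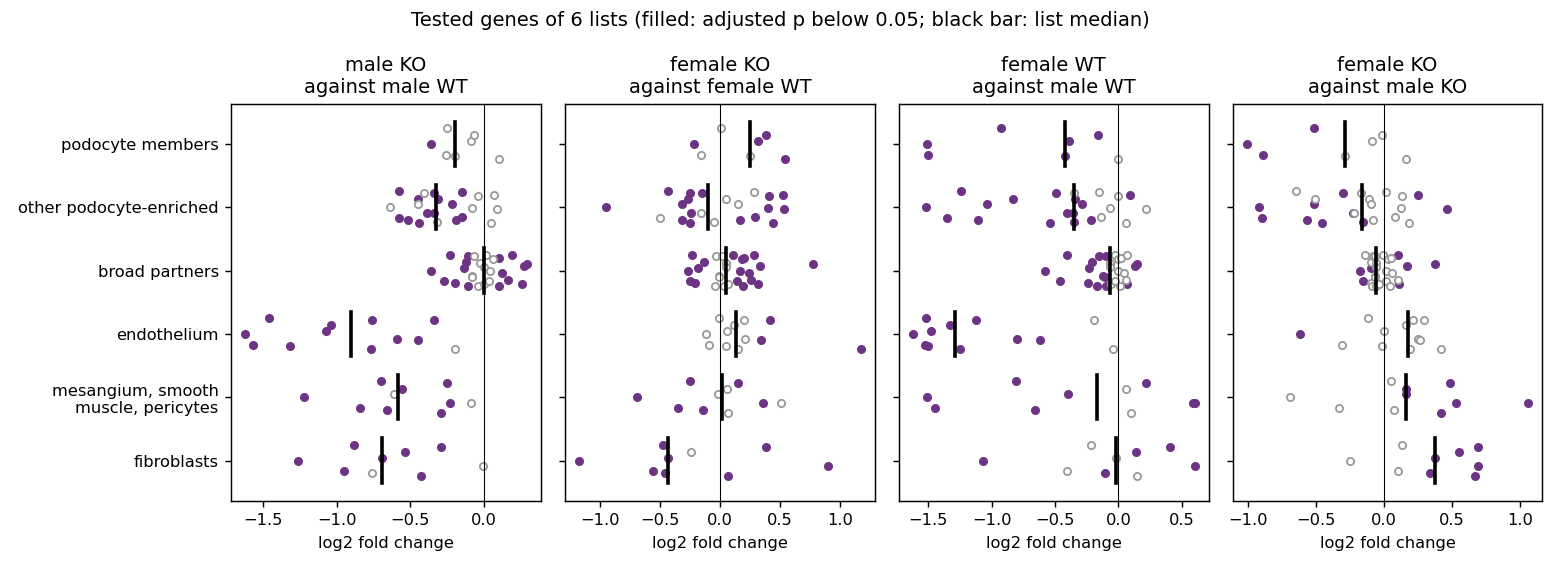
Log2 fold changes of the podocyte genes, the 22 other podocyte-enriched genes and marker lists of other cell types, by comparison, with list medians. The endothelial list has medians of -0.91 in male KO over male WT cells and -1.29 in female WT over male WT cells, the lowest of the glomerular and stromal lists there.

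Markers of other cell types that the cultures could hold were counted in the same comparisons, in which the shares of all tested genes were again 10.1% lower and 10.1% higher in male KO over male WT cells, 20.7% higher and 18.6% lower in female KO over female WT cells, and 16.0% lower in female WT over male WT cells. Of 12 endothelial genes, all tested, 11 fell in male KO over male WT cells and 0 rose (median -0.91), among them Cdh5 (VE-cadherin, by 1.62, SE 0.10) and Tie1 (by 1.57, SE 0.20), and 10 fell in female WT over male WT cells (median -1.29). In female KO over female WT cells 3 rose, Plvap (1.17 ± 0.16) and Emcn (0.42 ± 0.12) most, and 0 fell. Their summed level was 62.4 to 69.6 CPM in male KO, 126 to 142 in male WT, 60.1 to 77.5 in female KO and 54.1 to 61.9 in female WT libraries. In male KO libraries the endothelial sum was therefore near that of the female pools, whereas Nphs1, Ptpro and Podxl in male KO libraries were nearer to male WT than to female levels. Of 11 genes of mesangium, smooth muscle and pericytes, 10 were tested, and Ren1 (renin) had 0 counts in all libraries. In males 8 fell and 0 rose, and in females 2 rose and 4 fell. Their sum was 2830 to 2910 CPM in male KO, 3390 to 3730 in male WT, 3630 to 4190 in female KO and 3690 to 3740 in female WT libraries. Most of it came from Acta2, with means of 1300, 1520, 1820 and 1630 CPM in these groups, and Tagln, with 1140, 1400, 1530 and 1470. Of 9 tested fibroblast genes 7 fell in males and 0 rose, and in females 3 rose and 5 fell. The fibroblast sum was 23400 to 23600 CPM in male KO, 28800 to 31400 in male WT, 29100 to 31300 in female KO and 29000 to 31100 in female WT libraries. The fibronectin gene Fn1 alone made up 87.4% to 92.3% of it. The rest of the fibroblast list summed to 1790 to 1980 CPM in male KO, 3430 to 3660 in male WT, 2550 to 2780 in female KO and 3570 to 3840 in female WT libraries.

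Mesothelium expresses both Wt1 and Podxl. Of its 5 tested markers 3 rose and 0 fell in male KO over male WT cells, where 20.2% of all tested genes were called in either direction, and 3 rose and 1 fell in female KO over female WT cells, where 39.3% were called. The mesothelial surface protein gene Msln rose by 0.76 ± 0.042 in males and 1.07 ± 0.041 in females, and Krt19 by 0.48 ± 0.032 and 0.47 ± 0.030. The summed mesothelial level was 2050 to 2100 CPM in male KO, 1510 to 1680 in male WT, 1860 to 1930 in female KO and 1460 to 1500 in female WT libraries. The keratin genes Krt7 and Krt19, which other epithelia also express, carried 93.4% to 96.3% of it. Without them the sum was 130 to 138 CPM in male KO, 74.7 to 85.4 in male WT, 111 to 120 in female KO and 54.1 to 62.2 in female WT libraries. Most of this remainder was Msln, which averaged 130, 76.9, 110 and 52.7 CPM in these groups, so it largely restates the change of Msln. The markers Upk1b, Lrrn4 and Gpm6a had at most 6 counts in any library, whereas Upk3b and Bnc1 passed the filter. Upk3b averaged 3.35 CPM in male KO, 3.04 in male WT, 3.1 in female KO and 3.25 in female WT libraries. Bnc1 averaged 0.981, 1.0, 0.709 and 1.3 CPM in the same order. Of 5 parietal epithelial genes, 3 rose and 1 fell in males, and 3 rose and 2 fell in females. Their sum was 2470 to 2630 CPM in male KO, 2300 to 2390 in male WT, 2610 to 2780 in female KO and 2240 to 2370 in female WT libraries. Most of that sum was Akap12, with means of 1900, 1710, 2040 and 1680 CPM in these groups. Of 10 tested leukocyte genes 5 rose and 0 fell in each sex, at a sum of 35.5 to 37.8 CPM in male KO, 23.2 to 28.4 in male WT, 52.7 to 65.1 in female KO and 38.1 to 47.4 in female WT libraries. The 7 tested proximal tubule genes gave 1 that rose and 2 that fell in each sex, which in females is near the share of all tested genes. The proximal tubule sum was 76.2 to 78.5 CPM in male KO, 88.7 to 93.8 in male WT, 71.4 to 75.2 in female KO and 103 to 118 in female WT libraries. Its largest part was Ggt1, with means of 37.0, 47.7, 35.5 and 68.7 CPM in these groups. Of 6 tested genes of the distal nephron and collecting duct 1 fell in males and 4 in females, at a sum of 6.7 to 8.51 CPM in male KO, 10.4 to 13.0 in male WT, 4.14 to 7.43 in female KO and 18.6 to 20.5 in female WT libraries. The part of these other cell types in the values of the 7 podocyte genes was not tested.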

How the data were processed

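RNA of 15 libraries was measured with a strand-specific mRNA kit, per the labels' protocols. The authors deposited raw counts per gene symbol, with no scaling between libraries. The tools listed are STAR 2.6.1, featureCounts, edgeR 3.26.8 and limma 3.40.6 on mm10, all per the submitters' processing notes. The sources used here do not say what annotation was used or whether counting used strand. CPM values that the authors also deposited equal the counts over the library total to within 5.1e-11 CPM and were used for that check only.

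The counts were fitted in R 4.3.3 with edgeR 4.0.16: filterByExpr (minimum count 10, minimum total 15), TMM scaling, and 1 robust quasi-likelihood fit with a mean per group over the 15 libraries. The common dispersion had a square root of 3.59%. Adjusted p-values are Benjamini-Hochberg over 13912 genes for each of 5 comparisons, and a gene was called below 0.05. SE is the standard error of the log2 fold change, and intervals are 95%. CPM per gene is TMM-scaled. Floors cover counting error only, since reads are not molecules. Exon lengths came from GENCODE M21 by symbol, for 96.2% of the tested genes. The fit was tested on simulated data. No 2 libraries of a group agreed within counting noise, so none was counted as a duplicate. Genes were named as follows: all 7 podocyte genes, the 2 genes nearest to each in profile, and, where a result turned on a list, up to 2 called genes in each direction per list and KO comparison. In taking the 2 nearest genes, names of gene models, clones, dates and duplicated symbols were passed over. The members and lists were chosen with earlier results of these data known. The wider podocyte list leaves out some genes that are not reported here. Alternatives were other scalings, filters and tools (limma-voom in limma 3.58.1, DESeq2 1.42.0), a replicate block, only the groups compared, counts summed per pool, and leaving out each library.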

Additional observations from a re-analysis of the deposited data

Results flagged for a closer look

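In 2 of 21 groups of 4 libraries, 1 library stood apart from the other 3. Both cases were the library female WT 3, which was the highest of its group for Podxl, at 117 CPM (a gap of 0.86 of the group's range), and for Cd2ap, at 392 CPM (0.869). Chance flags about 5% of groups.

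The KO effect differed between the sexes by edgeR's interaction test for 5 of the 7 podocyte genes, where it differed for 15.6% of all tested genes. As log2 effects in females minus males these were 0.61 for Nphs1 (adjusted p = 0.0363), 0.58 for Wt1 (0.000137), 0.49 for Ptpro (0.0194), 0.41 for Podxl (9.69e-07) and 0.14 for Synpo (0.0364). The calls of Nphs1, Ptpro and Synpo were lost when some single libraries were left out.

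It also differed for 10 of the 22 other podocyte-enriched genes, where it differed for 15.6% of all tested genes. The effect in females was the higher one for Foxd1 (0.84, adjusted p = 0.00076), Foxc2 (0.75, 2.77e-06), Clic5 (0.60, 6.17e-05), Nes (0.59, 9.06e-07), Pdpn (0.56, 2.32e-10), Robo2 (0.47, 0.0105) and Sema3g (0.33, 0.0138). It was the lower one for Npnt (-0.39, 1.56e-08), Cdkn1c (-0.24, 0.0423) and Col4a4 (-0.16, 0.0151). Each sex and genotype is 1 pool, so the sex and the pool cannot be told apart in these differences.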

How the results depend on the processing

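Over 10 alternatives and the omission of each of the 15 libraries, the log2 fold changes of the 7 genes kept their direction and their side of the threshold in 583 of 651 refits, lost a call in 41, gained one in 15 and changed sign in 12, all without a call in either fit. The changes of sign with counts summed per pool were Nphs1 (0.22), Wt1 (0.09) and Podxl (0.11) in male KO over male WT cells, Ptpro (-0.01) in female KO over female WT cells, Cd2ap (-0.04) in female WT over male WT cells and Wt1 (-0.13) in female KO over male KO cells. That fit holds 1 KO effect and 1 sex effect in common. The others were Cd2ap in female KO over female WT cells with library totals alone (-0.03) and without female KO 3 (0.00) or 4 (-0.02), in a range of -0.02 to 0.03 without single libraries, Cd2ap in female WT over male WT cells without male WT 1 (-0.05) or female WT 3 (-0.02), in a range of -0.05 to 0.03, and the difference of the KO effects of Magi2 without male KO 2 (-0.08), in a range of -0.08 to 0.24. The 28 group levels moved by less than 1 SD with libraries scaled by their totals alone, the only alternative applied to them. The number of the 7 called in male KO over male WT cells was 1, and became 4 with the replicate block (adding Cd2ap, higher by 0.11 with adjusted p = 0.0111, and Podxl and Ptpro, lower with adjusted p = 0.0341 and 0.0139), 3 with only the groups compared, 3 with limma-voom and 1 to 2 without single libraries. It was 4 in female KO over female WT cells (4 to 5 without single libraries), 6 in female WT over male WT cells (5 to 6) and 3 in female KO over male KO cells (3 to 4, and 4 with the block, which adds Cd2ap at -0.10, adjusted p = 0.0487). For the difference of the KO effects it was 5, became 3 with DESeq2's test, and was 2 to 5 without single libraries. Counts summed per pool were fitted additively on 4 pools. The 1 KO effect of that fit was set beside both KO comparisons, and its 1 sex effect beside both comparisons of the sexes. That fit gives no KO effect per sex and no difference of the KO effects. Over all libraries, 2808 genes were called between KO and WT in males and 5469 in females. Between the sexes 3984 were called in WT and 1280 in KO cells. The cause of these changes was not tested, except that the pool sums leave 1 residual degree of freedom. Libraries with the same replicate number did not all deviate together (correlations of their deviations were -0.0285 to 0.165), and the replicate block called 3092 genes in males and 5909 in females. Nphs1 and Magi2 had the fewest counts of the 7, which limits what could be detected for them.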

Other observations

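Genes of broadly expressed partners of podocyte proteins, in adhesion, the basement membrane and actin, were a further list of 27, all tested. In male KO over male WT cells 8 rose and 8 fell, and in female KO over female WT cells 12 rose and 6 fell, with medians of 0.00 and 0.05 on the log2 scale. Over all tested genes 20.2% were called in males and 39.3% in females. Anln, an actin-binding protein of dividing cells, rose by 0.29 ± 0.043 (SE) in males and 0.77 ± 0.042 in females, and the integrin subunit gene Itga3 rose by 0.27 ± 0.024 and 0.33 ± 0.023. The laminin gene Lamb2 fell in both sexes, by 0.27 (SE 0.031) in males and 0.25 (SE 0.029) in females. Vegfa, a growth factor for endothelium, fell by 0.36 (SE 0.040) in males, and Agrn, a basement membrane proteoglycan, fell by 0.27 (SE 0.030) in females. In female WT over male WT cells 3 of the 27 rose and 12 fell, where 28.6% of all tested genes were called, and in female KO over male KO cells 4 rose and 3 fell, where 9.2% were called.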
